A study of Mus musculus with 7 samples.

Results

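The genes described here encode the oxytocin receptor and the steps that lead from it to the release of stored calcium. The members are the receptor Oxtr, the alpha subunits Gnaq and Gna11, the phospholipases C beta Plcb1, Plcb3 and Plcb4, and the IP3 receptors Itpr1, Itpr2 and Itpr3. Their rows were found by gene symbol, which gave 9 of the 56440 gene models in the deposited table, and the row with the highest mean was used for Plcb1 and Plcb4, which have 2 rows each. All 9 passed the filter, which asked for a value of 10 or more in 3 or more libraries. RNA was sequenced from basal cells of the mouse mammary gland, sorted by flow cytometry after trypsin digestion of fresh tissue on day 2 of lactation, with libraries made by the SMARTer v4 protocol. The control group (genotype Ctrl, marked Blg negative in the sample titles) had 4 biological replicates, and the mutant group (genotype a3a6KO, also named DKO and marked Blg positive) had 3. From what is known of the study, Blg is a Cre driven by the beta-lactoglobulin promoter, which acts in luminal cells, and a3 and a6 are the laminin-binding integrin subunits encoded by Itga3 and Itga6. All mutants and no controls carried Blg, and the transgene and the loss of the integrins cannot be told apart. Whether luminal cells had lost the integrins was not analysed here. Strain, age, sort markers and any pooling of animals were not given in the sources used here. Accordingly, p-values measure the spread between these samples. The comparison bears on whether basal cells carried a different amount of the RNAs for oxytocin reception in the mutant glands.

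Oxytocin released from the pituitary reaches the myoepithelial cells of the basal layer through the blood and binds its receptor there. The receptor activates G proteins of the Gq class, whose alpha subunits switch on phospholipase C beta, which splits the membrane lipid PIP2 into diacylglycerol and IP3. IP3 opens its receptors, calcium channels of the endoplasmic reticulum, and the calcium that leaves the store sets off the contraction that ejects milk.

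The libraries held between 9368418 and 21548279 reads in gene models, with a3a6KO replicates 2 and 3 the shallowest. All values below are normalised read counts, that is reads scaled by one size factor per library, and they are not corrected for gene length unless given per kb of exon. The 15 basal and myoepithelial markers were all measured, and their log2(value + 1) averaged 14.61 ± 0.08 over the controls (SD, n = 4) and 14.57 ± 0.10 over the mutants (SD, n = 3). RNA of both targeted genes was found in every library, with Itga3 between 465 and 719 in Ctrl and between 494 and 818 in a3a6KO, and Itga6 between 7764 and 10603 in Ctrl and between 8343 and 9083 in a3a6KO. The 12 endothelial markers summed to between 4626 and 7626 in Ctrl and between 9623 and 14054 in a3a6KO, and all 12 had a log2 fold change above 0 (median 1.02). The 13 luminal markers summed to between 136717 and 827965 in Ctrl, with replicates 3 and 4 above the other 2, and to between 104699 and 366865 in a3a6KO. The part of these other cells in the results below was not tested.

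Oxtr was among the most abundant transcripts of these cells in every library, while the 8 genes downstream of it were far lower. No member passed the test between the groups. Of the 16889 genes tested with limma, 0 (0%) had an adjusted p under 0.05, with 1068 (6.32%) at an unadjusted p under 0.05, and edgeR called 0 of 17228 and DESeq2 73 of 13164 (0.555%), with no member among them. Among the 9 members, 0 had an unadjusted limma p under 0.05. The log2 fold change, the a3a6KO mean less the Ctrl mean of log2(value + 1), was below 0 for 6 members and above 0 for 3, against 50.5% of all genes tested below 0, and the members' median was -0.12 where that of all genes tested was -0.004. Plcb1 was the only member whose groups did not overlap, every a3a6KO library lying below every Ctrl library, which held for 593 (3.51%) of all genes tested, and 7.51% did not overlap in either direction. In these bulk samples, fewer cells of a type and less RNA per cell cannot be told apart.

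**Figure D1:**
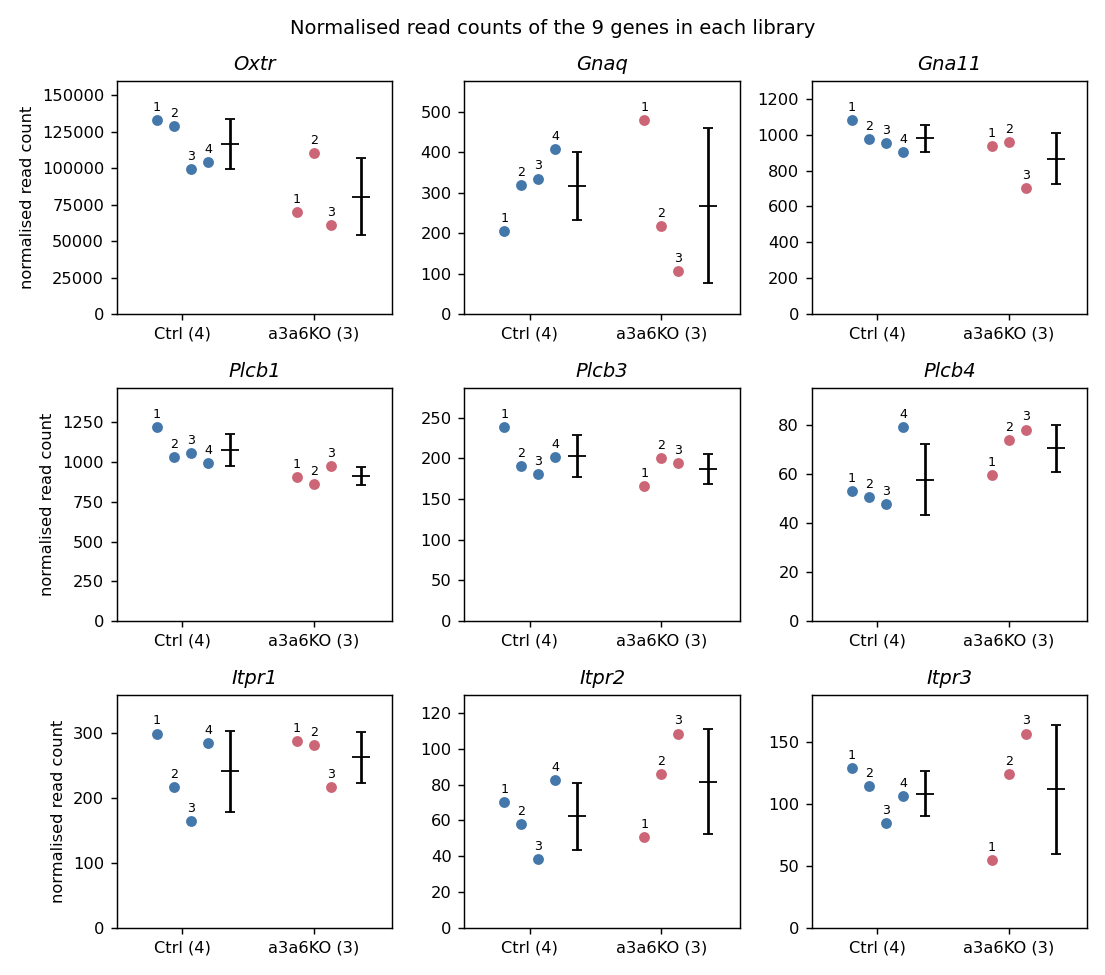
Normalised read counts (y axis, linear, from 0) of the 9 genes in each of the 4 Ctrl (blue) and 3 a3a6KO (red) libraries, numbered by replicate, with black bars for the group mean and SD. Oxtr lay between 60989 and 133250, and Plcb1 was the only gene whose groups did not overlap.

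The promoter sequences of the member with the highest level and of the member that varied most between libraries are shown because they differ in CpG content. RefSeq windows on GRCm38.p6, covering the 250 bases before each transcription start, were matched for 8 of the 9 members (9 windows, Plcb4 having 2), and Itpr1 was not matched. The window of Oxtr lies inside the span of its measured gene model (112473684 to 112490890), not upstream of it. The window of Gnaq lies before its model, which starts at 16132829. Of the window of Oxtr, only the 132 bases that lie outside annotated exons are printed (chr6:112489944-112490075, minus strand). The window of Gnaq is printed whole (chr19:16132434-16132683, plus strand). Both run 5′ to 3′ toward the start, and capitals mark CpG dinucleotides.
Oxtr: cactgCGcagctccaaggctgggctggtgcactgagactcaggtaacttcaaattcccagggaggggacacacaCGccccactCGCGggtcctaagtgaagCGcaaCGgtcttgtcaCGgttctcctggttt
Gnaq: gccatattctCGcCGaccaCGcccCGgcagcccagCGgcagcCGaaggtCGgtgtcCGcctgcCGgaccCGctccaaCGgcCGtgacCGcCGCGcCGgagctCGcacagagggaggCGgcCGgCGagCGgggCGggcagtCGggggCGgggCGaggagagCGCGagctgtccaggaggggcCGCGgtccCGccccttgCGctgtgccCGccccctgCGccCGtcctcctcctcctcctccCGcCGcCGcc
The printed stretch of Oxtr holds 7 CpG dinucleotides and the window of Gnaq 37. Over the full window, Oxtr had a GC content of 61.6% and 12 CpG dinucleotides, an observed over expected ratio of 0.507, against medians of 52.4% and 0.373 over 32851 windows of the same length. Gnaq had a GC content of 79.2% and a CpG ratio of 0.949. The windows of Gna11, Plcb1, Plcb3, Itpr2 and Itpr3 and the upstream window of Plcb4 held 20 to 42 CpG dinucleotides, and the other window of Plcb4 held 3. Letters searched on both strands of the Oxtr window were the E-box CACGTG (found once, at bases 43 to 38 before the start, and in 6.02% of all windows), the GC box GGGCGG (once, at bases 49 to 44, and in 32.7%), GGAATG bound by TEAD factors (no match, in 12.6%), TTCNNNGAA bound by STAT factors (no match, in 7.02%), TGANTCA bound by AP-1 (no match, in 6.75%), TATAAA (no match, in 12.4%) and the CArG box (no match, in 1.47%). The E-box and GC box matches do not overlap each other and lie in the annotated exon, outside the stretch printed. The window of Gnaq held 4 GC boxes and no other of these motifs. These matches describe the letters of the windows and were not tied to any measurement.

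Oxtr (identifier GSMG0033516, chromosome 6, 112473684 to 112490890, minus strand, mm10), the receptor itself, was read at 133250, 129108, 99427 and 104259 in the controls (replicates 1 to 4) and at 69940, 110745 and 60989 in the mutants (replicates 1 to 3). The a3a6KO replicates 1 and 3 lay below every control, and replicate 2 lay within the control range, so the groups overlapped. The controls averaged 116511 ± 17135 (SD, n = 4) and the mutants 80558 ± 26523 (SD, n = 3), a ratio of means of 0.691. The log2 fold change of -0.57 (SE 0.26, 95% interval -1.15 to 0.01) did not pass the test, with an unadjusted p of 0.0535 and a limma adjusted p = 0.785. The interval is wide and ends just past 0, and a p above the threshold does not show that the groups were alike. Each library held between 34279 and 159799 reads of Oxtr, so counting error was small beside the spread between libraries.

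Which mutant library was included moved the size of the Oxtr difference. Without a3a6KO replicate 2, the library with the control-like level, the log2 fold change was -0.82, and without replicate 3 it was -0.39. It stayed below 0 in all 20 alternative settings, with the smallest limma adjusted p, 0.555, under library weights. The reads of Oxtr made up 0.916%, 0.897%, 0.635% and 0.640% of all reads in Ctrl replicates 1 to 4 and 0.457%, 0.773% and 0.366% in a3a6KO replicates 1 to 3. Among all gene models, its value ranked 4, 3, 10 and 10 in Ctrl and 16, 6 and 26 in a3a6KO, with 1 the highest. These ranks are not corrected for length. Per kb of exon, Oxtr ranked between 18 and 65 among the genes with a known exon length.

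The summed markers of several other cell types varied between libraries beside Oxtr. In order of falling Oxtr, the libraries were Ctrl replicates 1 and 2, a3a6KO replicate 2, Ctrl replicates 4 and 3, and a3a6KO replicates 1 and 3. The sums of the 12 immune markers were 845, 900, 1175, 2282, 3021, 2426 and 3350 in that order, low where Oxtr was high, with 1 neighbouring pair out of order. Cd74 made up most of each of these sums, with 2047 of the 2426 in a3a6KO replicate 1. The mean of log2(value + 1) over the 12 markers was 2.77, 3.05, 3.56, 3.73, 3.95, 3.11 and 4.11 in that order. By this mean, a3a6KO replicate 1 stood near Ctrl replicate 2. Of the immune markers, 5 passed the filter and Ms4a1 was at 0 in every library. Of 10 fibroblast markers, Pdgfra was not found by symbol and the other 9 were measured. The sums of these 9 were 16840, 17556, 21311, 20856, 27811, 24439 and 31583 in the same order. These sums also rose as Oxtr fell apart from neighbouring pairs. Dcn was the largest part of each, with 11710 of the 16840 in Ctrl replicate 1. The mean of log2(value + 1) over the 9 markers was 8.38, 8.46, 9.16, 8.95, 9.67, 9.02 and 9.33 in that order. By this mean, Ctrl replicate 3 was highest. Luminal sums were 195449, 136717, 169720, 827965, 636904, 104699 and 366865 in that order, high in the 2 controls with less Oxtr and lowest in a3a6KO replicate 1. Endothelial sums were 4626, 5739, 12559, 7626, 4959, 9623 and 14054, with every mutant above every control. The part of these cells in the Oxtr values was not tested. With each library centred on its basal markers, the log2 fold change of Oxtr was -0.53.

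The genes whose profile over the 7 libraries lay closest to that of Oxtr were found by the root mean square difference of log2(value + 1), each gene centred on its own mean, among 10300 genes. They were B3galnt1 (0.078), a glycosyltransferase gene, Cstf2t (0.106), which encodes a factor of mRNA 3′ end cleavage, and Trmt11 (0.111), a tRNA methyltransferase gene, where the deviation of Oxtr from its own mean was 0.396. B3galnt1 had values of 561, 604, 446 and 474 in Ctrl and of 292, 547 and 272 in a3a6KO, with a3a6KO replicate 2 within the control range. Their log2 fold changes were -0.56, -0.55 and -0.52, with limma adjusted p = 0.785, 0.647 and 0.738. Values near that of Oxtr follow from how these genes were chosen and are no separate evidence.

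The pair of alpha subunits that couple the receptor to phospholipase C behaved unlike each other across libraries. Gnaq (GSMG0019477, chromosome 19, 16132829 to 16387453, plus strand), which encodes the alpha subunit Gq, had values of 205, 320, 335 and 408 in the controls (replicates 1 to 4) and of 480, 219 and 107 in the mutants (replicates 1 to 3). The highest and the lowest library of all 7 were both mutants, 4.49 times apart, and the controls lay between them. The means were 317 ± 84.0 (SD, n = 4) and 268 ± 191 (SD, n = 3), and the log2 fold change of -0.46 (SE 0.45, 95% interval -1.48 to 0.56) did not pass the test (limma adjusted p = 0.876). The SD of log2 values within groups, 0.755, was above that of 96.0% of the genes of like level. The value was lowest in the library with the fewest reads (a3a6KO replicate 3, 9368418), and the 3 libraries with the fewest reads (with a3a6KO replicate 2, 10861835, and Ctrl replicate 1, 14480615) held the 3 lowest values. The part of depth in this was not tested. Reads of Gnaq numbered between 60 and 579 per library. The span of Gnaq also holds an unnamed gene model on the same strand (overlap of 6333 bases, mean 46.0). The log2 fold change was -1.0 without a3a6KO replicate 1, 0.07 without a3a6KO replicate 3 and -0.06 with library weights, so neither its sign nor its size was stable.

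Gna11 (GSMG0004374, chromosome 10, 81528732 to 81545048, minus strand), which encodes the close relative G11, was steadier, with values of 1081, 976, 955 and 902 in Ctrl and of 937, 959 and 705 in a3a6KO. Replicate 3 of a3a6KO was the lowest library, and the other mutants lay within the control range. The means were 979 ± 75.1 (SD, n = 4) and 867 ± 141 (SD, n = 3), with a log2 fold change of -0.19 (SE 0.15, 95% interval -0.52 to 0.15, limma adjusted p = 0.852). Without a3a6KO replicate 3 the log2 fold change was -0.04. Per kb of exon, Gna11 was the higher of the pair in all 7 libraries and made up 83.5% ± 4.63 (SD, n = 4) of their sum in Ctrl and 85.3% ± 7.95 (SD, n = 3) in a3a6KO. Its share was lowest in a3a6KO replicate 1, at 76.4%, and highest in a3a6KO replicate 3, at 91.6%.

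Of the phospholipases C beta, Plcb1 was the highest and the only member whose groups did not overlap. Plcb1 (GSMG0021836, chromosome 2, 134786163 to 135475258, plus strand) had values of 1222, 1029, 1057 and 995 in Ctrl and of 903, 864 and 973 in a3a6KO. All 3 mutants lay below all 4 controls, with a3a6KO replicate 3 just under Ctrl replicate 4. The span of Plcb1 also holds an unnamed gene model on the same strand (overlap of 4790 bases, mean 31.3). The means of Plcb1 were 1075 ± 100.9 (SD, n = 4) and 913 ± 55.5 (SD, n = 3). The log2 fold change of -0.23 (SE 0.12, 95% interval -0.51 to 0.05) did not pass the test, with an unadjusted p of 0.0941 and a limma adjusted p = 0.791. It ran from -0.28 to -0.17 when each library was left out, so the difference was small but kept its sign.

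Plcb3 (GSMG0020027, chromosome 19, 6952325 to 6969814, minus strand), a broadly expressed isoform, had values of 239, 191, 181 and 202 in Ctrl and of 167, 200 and 194 in a3a6KO. The lowest library was a3a6KO replicate 1, and the other mutants lay within the control range. The means were 203 ± 25.4 (SD, n = 4) and 187 ± 18 (SD, n = 3), with a log2 fold change of -0.12 (SE 0.17, 95% interval -0.49 to 0.26, limma adjusted p = 0.913). An unnamed gene model on the opposite strand, with a mean of 37.1, overlaps Plcb3, and the use of strand in counting was not given in the sources used here.

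Plcb4 (GSMG0043847, chromosome 2, 135741817 to 136014574, plus strand) was lower, with values of 53.2, 50.9, 47.7 and 79.4 in Ctrl and of 59.7, 73.8 and 78.3 in a3a6KO. Ctrl replicate 4 was the highest library, and the 3 mutants lay above the other 3 controls. The log2 fold change of 0.30 (SE 0.25, 95% interval -0.27 to 0.88) did not pass the test (limma adjusted p = 0.864). It was 0.46 without Ctrl replicate 4 and 0.40 when both rows of the symbol were summed. Between 44 and 105 reads of Plcb4 stood behind these values, the fewest for any phospholipase C beta here.

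**Figure D2:**
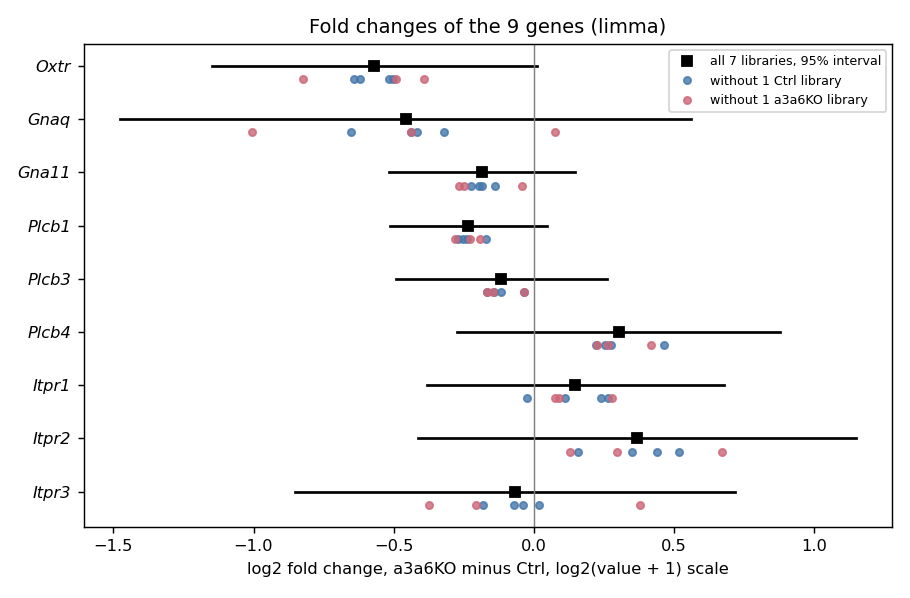
Log2 fold change (x axis, the a3a6KO mean less the Ctrl mean of log2(value + 1)) of each gene with its 95% interval from limma (black) and the values without 1 Ctrl library (blue) or 1 a3a6KO library (red). Every interval includes 0, that of Oxtr reaching from -1.15 to 0.01, and the red points of Gnaq and Itpr3 lie on both sides of 0.

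The IP3 receptors differed in how far they varied, and none passed the test. Itpr1 (GSMG0032295, chromosome 6, 108213094 to 108551116, plus strand) had values of 299, 217, 164 and 284 in Ctrl and of 288, 282 and 217 in a3a6KO. All 3 mutants lay within the control range, and Ctrl replicate 3 was the lowest library. The means were 241 ± 62.5 (SD, n = 4) and 263 ± 39.5 (SD, n = 3), with a log2 fold change of 0.15 (SE 0.23, 95% interval -0.38 to 0.68, limma adjusted p = 0.922). Without Ctrl replicate 3 it was -0.02.

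Itpr2 (GSMG0033889, chromosome 6, 146108300 to 146502223, minus strand), the isoform known for its high sensitivity to IP3, had values of 70.3, 58.2, 38.6 and 82.5 in Ctrl and of 50.5, 85.7 and 109 in a3a6KO. Replicates 2 and 3 of a3a6KO lay above every control, and replicate 1 lay within their range. The log2 fold change was 0.37 (SE 0.35, 95% interval -0.41 to 1.15, limma adjusted p = 0.874), and it ran from 0.13 without a3a6KO replicate 3 to 0.67 without a3a6KO replicate 1.

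Itpr3 (GSMG0016421, chromosome 17, 27057299 to 27122222, plus strand), an isoform found in many epithelia, had values of 129, 114, 84.5 and 106 in Ctrl and of 54.7, 124 and 157 in a3a6KO. As for Gnaq, the highest and the lowest library were both mutants, here in the reverse order, with replicate 3 highest and replicate 1 lowest. The controls averaged 108 ± 18.4 (SD, n = 4) and the mutants 112 ± 52.0 (SD, n = 3), while the log2 fold change was -0.07 (SE 0.35, 95% interval -0.85 to 0.72, limma adjusted p = 0.977), so mean and log2 fold change differed in sign. Without a3a6KO replicate 1 it was 0.38, and without a3a6KO replicate 3 it was -0.37.

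**Figure D3:**
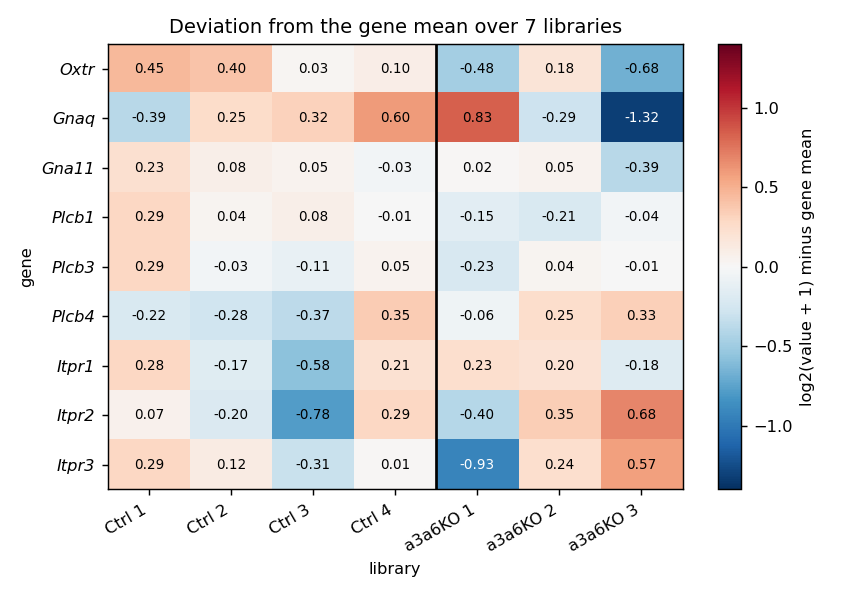
Deviation of log2(value + 1) from the mean of each gene over the 7 libraries (colour and printed number) for the 9 genes (rows) in the 4 Ctrl and 3 a3a6KO libraries (columns, divided by a line). Gnaq is lowest in a3a6KO replicate 3 (-1.32) and highest in replicate 1 (0.83), where Itpr3 is at 0.57 and -0.93.

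Among the mutants, replicates 1 and 3 stood at opposite ends for Gnaq, Itpr2 and Itpr3. Relative to its mean over all libraries, a3a6KO replicate 1 deviated by 0.83 on the log2 scale for Gnaq, by -0.40 for Itpr2 and by -0.93 for Itpr3. Replicate 3 deviated by -1.32 for Gnaq, by 0.68 for Itpr2 and by 0.57 for Itpr3. For Oxtr both lay on the same side, at -0.48 and -0.68. Itpr1 made up 73.8% of the summed IP3 receptor level per kb in a3a6KO replicate 1 and 45.2% in replicate 3, with 55.6% to 60.5% in the controls, whose mean was 58.2% ± 2.41 (SD, n = 4). The group mean in a3a6KO, 58.9% ± 14.3 (SD, n = 3), was close to this, and the spread was wider.

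Levels of different members were compared per kb of exon, with lengths from the GENCODE M21 annotation. Oxtr had the highest mean over the 7 libraries, 21107 per kb, followed by Gna11 (273), Plcb1 (134), Gnaq (52.5), Plcb3 (46.1), Itpr1 (25.4), Itpr3 (12.2), Plcb4 (12.1) and Itpr2 (5.99). Oxtr exceeded Gna11 by 53.2 to 94.3 times within each library. Each member exceeded the next in all 7 libraries, except that Gnaq exceeded Plcb3 in 4 of 7 and Itpr3 exceeded Plcb4 in 4 of 7, so these neighbours were not separated. Within the phospholipases C beta, Plcb1 made up 70.9% ± 2.21 (SD, n = 4) of the sum per kb in Ctrl and 67.9% ± 2.58 (SD, n = 3) in a3a6KO. The level of Oxtr per kb over the sum of the 3 IP3 receptors was 550, 680, 708 and 457 in Ctrl and 369, 466 and 262 in a3a6KO, where a3a6KO replicate 2 was just above the lowest control.

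**Figure D4:**
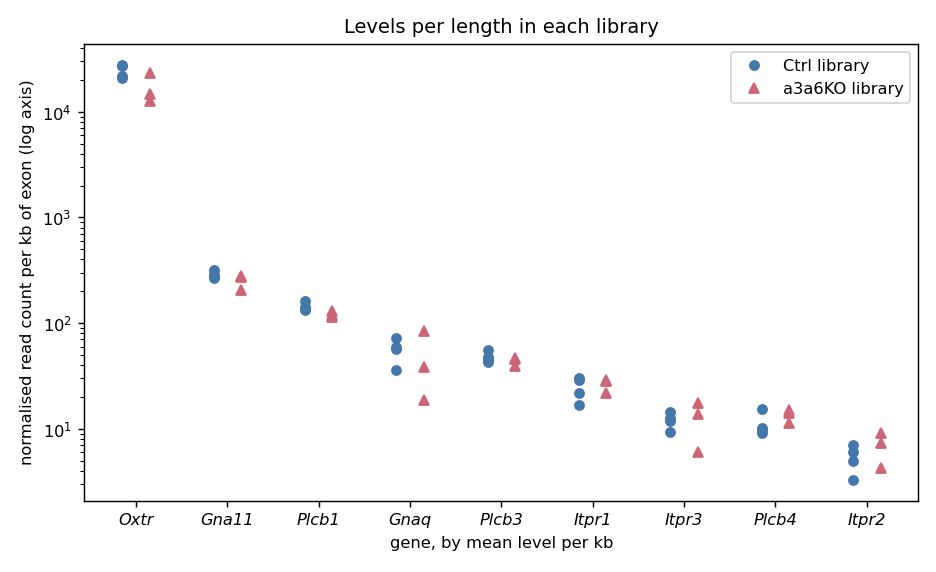
Normalised read count per kb of exon (y axis, log scale) of the 9 genes, ordered by their mean, in the Ctrl (blue circles) and a3a6KO (red triangles) libraries. Oxtr stands at 12733 to 27818 per kb in each library, and no other gene exceeds 317.

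Other genes that encode alpha subunits and phospholipases C set these levels in context, all per kb and as means of the 4 controls. Gnai2 and Gnas, which encode alpha subunits of the inhibitory and stimulatory classes, stood at 5301 and 1237. Before division by length, their control means were close, at 12192 and 12836. The gap per kb comes from the unions of exons used, 2.3 kb for Gnai2 and 10.376 kb for Gnas. A union of exons can be longer than any 1 transcript, which lowers the level per kb. Gnai3, of the inhibitory class, stood at 415, above Gna11 at 287, and Gnaq was at 56.1. The remaining members of the Gq class stood at 57.2 (Gna15) and 2.74 (Gna14). Among the phospholipases C, Plch2 (453), Plcd1 (294) and Plcd3 (159), of the eta and delta classes, and Plcxd1 (190) stood above Plcb1 (143), and Plcb3 (47.7) was near Plcg1 (38.5). Gnai3, Gna14, Gna15 and Plcg1 were outside the rule for naming genes and were named after their values were seen.

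The rest of the pathway was followed through 10 lists with 208 genes in the table, of which 145 passed the filter. Of these, 96 had a log2 fold change above 0 and 49 below 0, and 93 to 104 were above 0 under the other scalings. Without a3a6KO replicate 3, 81 of 143 were above 0. None passed the limma test. An unadjusted p under 0.05 was reached by 8 of 145 (all higher in a3a6KO), beside 6.32% of all genes tested. The groups did not overlap for 12 of 145, beside 7.51% of all genes, and of these 10 were higher (676 of all genes, 4.00%) and 2 lower (3.51%). The counts of 8 and 12 were near the shares over all genes. The lists describe these libraries and carry no test of their own.

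The other Gq-coupled receptors, which share the downstream machinery with Oxtr, had the highest median log2 fold change of the lists with more than 1 tested gene. Of 53 receptor genes, 32 were below the filter, 14 of them listed at 0 in every library. Among the 21 tested, 16 had a log2 fold change above 0 and 5 below, with a median of 0.40, and 16 were above 0 under each of the other scalings. An unadjusted p under 0.05 was reached by 5 of the 21, all higher in a3a6KO, beside 6.32% of all genes tested. Every mutant lay above every control for 3 of the 21, beside 4.00% of all genes, and none passed adjustment. Ednrb, an endothelin receptor, had values of 237, 379, 240 and 422 in Ctrl and of 642, 469 and 963 in a3a6KO, so that every mutant lay above every control. Its log2 fold change was 1.10 (SE 0.29, limma adjusted p = 0.551). S1pr3, a receptor for sphingosine 1-phosphate, had values of 112, 139, 185 and 281 in Ctrl and of 278, 345 and 441 in a3a6KO, with a3a6KO replicate 1 just under Ctrl replicate 4 (log2 fold change 1.04, SE 0.31, limma adjusted p = 0.607). Adra1d, an adrenergic receptor near the filter, averaged 6.64 ± 2.26 in the controls (SD, n = 4) and 25.5 ± 11.4 in the mutants (SD, n = 3). The fitted log2 difference was 1.76 (SE 0.47, limma adjusted p = 0.551). Every control was below 10 (4.59 to 9.08) and every mutant above it, so Adra1d entered the test only through the mutants. It is among the 5 and the 3 genes counted above, and among those counted over all lists. S1pr2 and F2r, the thrombin receptor, had the highest means of the list and log2 fold changes of 0.59 (SE 0.26) and 0.33 (SE 0.32). Agtr1a, an angiotensin receptor named after its values were seen, was the third gene without overlap, and its log2 difference was 0.99 (SE 0.32, limma adjusted p = 0.659). The endothelial marker sums given above also did not overlap between the groups, and those of 10 pericyte and vascular smooth muscle markers ran from 3045 to 5156 in Ctrl and from 3814 to 5571 in a3a6KO. The part of these cells in the receptor values was not tested. Without a3a6KO replicate 3, the median of the list was 0.12, with 11 of 19 above 0. It was 0.25 without Ctrl replicate 1 and 0.69 without Ctrl replicate 4.

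Oxtr stood apart from these receptors in level. Its value per kb was 42.5 to 174 times that of the highest other receptor in the same library, which was F2r in all libraries but Ctrl replicate 1, where it was Chrm1. Over the sum of the 21 receptors per kb, Oxtr was 40.3, 36.1, 26.9 and 27.7 times as high in Ctrl and 18.1, 27.4 and 11.1 times as high in a3a6KO. Replicate 2 of a3a6KO again lay within the control range and the other mutants below it. The summed level of the 21 receptors was 690, 746, 772 and 785 per kb in Ctrl and 806, 844 and 1148 per kb in a3a6KO, so the ratio differed through its denominator as well as through Oxtr.

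**Figure D5:**
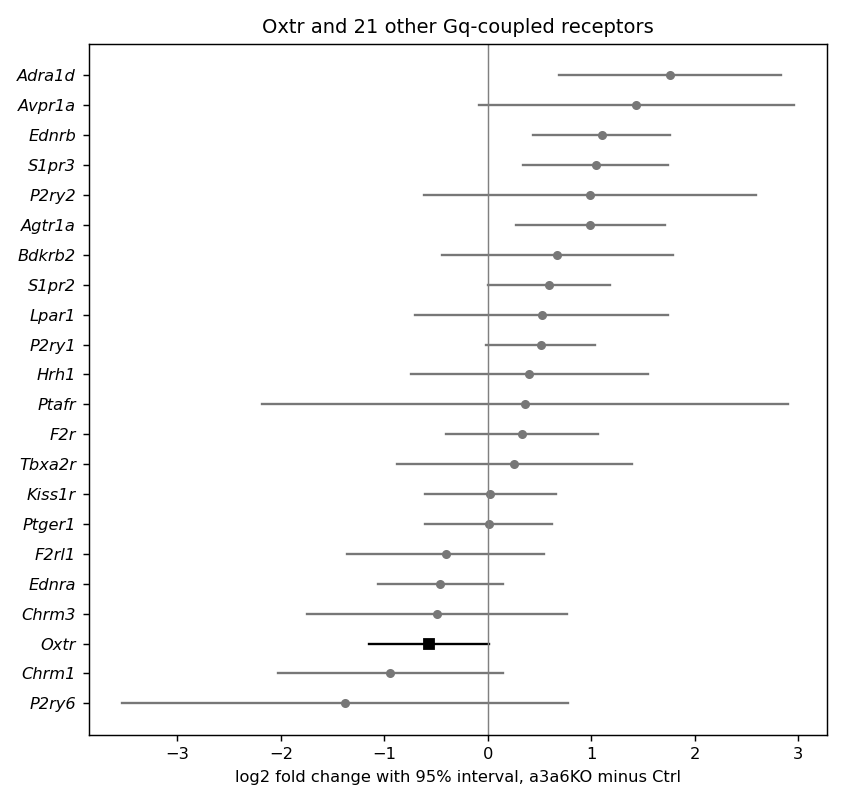
Log2 fold change (x axis, the a3a6KO mean less the Ctrl mean of log2(value + 1)) with its 95% interval from limma for Oxtr (black square) and the 21 other tested Gq-coupled receptor genes (grey circles), ordered by value. Oxtr, at -0.57, is among the 6 of 22 below 0, and no gene passed the adjusted test.

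Genes for the supply and breakdown of oxytocin stand upstream of the receptor. Oxt, which encodes oxytocin, was read in 1 of 7 libraries, and Avp, which encodes vasopressin, was listed at 0 in all. Of 4 tested genes in the list of supply and breakdown, none had an unadjusted p under 0.05. Lnpep, the aminopeptidase known as oxytocinase, had a log2 fold change of 0.22 (SE 0.25). Cd38, an enzyme known for its part in oxytocin secretion, had values of 41.2, 54.1, 66.1 and 72.6 in Ctrl and of 81.2, 75.2 and 96.1 in a3a6KO, with no overlap (log2 fold change 0.54, SE 0.26, limma adjusted p = 0.789). Pam and Rnpep, peptide-processing enzymes, had the highest values of the list and log2 fold changes of 0.29 (SE 0.18) and -0.02 (SE 0.13).

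Among the other G protein subunits, 12 of 21 tested were above 0 and 9 below, with a median of 0.05 (0.02 to 0.09 when 1 library was left out), and none had an unadjusted p under 0.05. Gnas and Gnai2 had log2 fold changes of 0.09 (SE 0.12) and 0.14 (SE 0.13), with both groups overlapping. The smallest p-values of the list belonged to Gnb4 (0.71, SE 0.32), Gnai1 (0.42, SE 0.23) and Gng11 (0.18, SE 0.12). Of the genes that end receptor or G protein signalling, 6 of 13 were above 0 and 7 below, with a median of -0.02 that ran from -0.05 (without a3a6KO replicate 3) to 0.17 (without Ctrl replicate 2). Grk5, a kinase that phosphorylates active receptors, had values of 324, 240, 376 and 528 in Ctrl and of 726, 575 and 761 in a3a6KO, every mutant above every control. Its log2 fold change was 0.95 (SE 0.25, 95% interval 0.38 to 1.52), with an unadjusted p of 0.00434 and a limma adjusted p = 0.551, so it did not pass. Rgs4, which speeds the switching off of Gq and Gi, had a log2 fold change of 1.06 (SE 0.40), an unadjusted p of 0.0274 and overlapping groups. Rgs2, a regulator with a preference for Gq and the highest value of the list, had values of 2514, 3708, 3947 and 3514 in Ctrl and of 4556, 2325 and 4788 in a3a6KO, with the lowest and the highest library both mutants. Grk6 and Rgs19 had log2 fold changes of -0.41 (SE 0.29) and 0.25 (SE 0.25).

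The other phospholipases C and the genes that supply their substrate showed small differences. Of 9 other phospholipases C tested, 6 were above 0 and 3 below (4 to 7 above 0 under the other scalings, and 3 without Ctrl replicate 3), and none had an unadjusted p under 0.05. Plch2 averaged 3396 ± 526 in the controls (SD, n = 4) and 3447 ± 150 in the mutants (SD, n = 3), and Plcd1, Plcd3, Plcl1 and Plcxd1 had log2 fold changes of 0.04, -0.24, 0.28 and 0.26. Of 16 tested genes of PIP2 supply, 13 were above 0, with a median of 0.10. Without a3a6KO replicate 3, 9 were above 0 with a median of 0.04, and leaving out the other libraries gave medians from 0.05 (without Ctrl replicate 2) to 0.16 (without a3a6KO replicate 2). Cds2, which makes the CDP-diacylglycerol used to rebuild phosphatidylinositol, had values of 353, 356, 358 and 376 in Ctrl and of 471, 455 and 416 in a3a6KO, with no overlap and narrow groups. Its log2 fold change was 0.31 (SE 0.12), with an unadjusted p of 0.0356 and a limma adjusted p = 0.742. Cdipt, which makes phosphatidylinositol from that product, and the transfer proteins Pitpnb and Pitpnc1 had log2 fold changes of 0.06, 0.13 and 0.15, and Pip4k2b, near the filter, had 0.76 (SE 0.58).

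Genes listed under IP3 metabolism, not all of which act on IP3 itself, were on both sides of 0, with 8 of 13 above and a median of 0.07. The median turned to -0.07, with 6 above 0, without a3a6KO replicate 3, while leaving out Ctrl replicate 2 gave 0.03 and leaving out a3a6KO replicate 2 gave 0.16. Itpkb, the kinase that turns IP3 into IP4, had values of 475, 381, 184 and 278 in Ctrl and of 176, 189 and 230 in a3a6KO, where Ctrl replicate 3 lay among the mutants (log2 fold change -0.65, SE 0.30, limma adjusted p = 0.785). Inpp5a, the phosphatase that removes a phosphate from IP3, had a log2 fold change of -0.34 (SE 0.19). Inpp5b, a related phosphatase, had no overlap and lower values in a3a6KO (732.8 ± 31.7 in Ctrl, SD, n = 4, and 633 ± 60.3, SD, n = 3), with a log2 fold change of -0.22 (SE 0.12). Inpp5k and Impad1 had the highest values of the list and log2 fold changes of 0.17 (SE 0.15) and 0.15 (SE 0.13). Inpp4a, named after its values were seen, had a log2 fold change of 0.26 with every mutant above every control.

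Among partners and regulators of the IP3 receptors, 15 of 26 were above 0 and 11 below, with a median of 0.02 (13 above and a median of -0.002 without Ctrl replicate 2), and none had an unadjusted p under 0.05. Itprid1, which encodes a protein with an IP3 receptor-interacting domain and is listed in the file under an older symbol, had values of 3196, 3484, 1485 and 1126 in Ctrl and of 827, 1636 and 1459 in a3a6KO. The 2 controls with low luminal marker sums were high and the other 2 lay among the mutants (log2 fold change -0.73, SE 0.42, limma adjusted p = 0.797). Prkaca, the catalytic subunit of protein kinase A, had values of 835, 766, 904 and 731 in Ctrl and of 717, 691 and 525 in a3a6KO, with no overlap (log2 fold change -0.34, SE 0.15, limma adjusted p = 0.785). Homer3, a scaffold that binds IP3 receptors, had no overlap and higher values in a3a6KO (0.54, SE 0.24). Ahcyl1, also called IRBIT, which competes with IP3 at the receptor, and Fkbp1a had the highest values and log2 fold changes of -0.16 (SE 0.13) and 0.10 (SE 0.14). Ryr3, the only ryanodine receptor gene that passed the filter, had a log2 fold change of 0.65 with SE 0.34 and a limma adjusted p = 0.789 (0.39 without a3a6KO replicate 3).

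In the diacylglycerol and protein kinase C arm, 16 of 21 genes were above 0 and 5 below, with a median of 0.12 and no unadjusted p under 0.05. The median was 0.08 without Ctrl replicate 3, with 14 above 0, and 0.19 without Ctrl replicate 2, with 16 above 0. With library weights, 14 were above 0. Of all genes tested, 50.5% were below 0. Prkca, a calcium-dependent protein kinase C, had values of 350, 390, 380 and 387 in Ctrl and of 478, 398 and 532 in a3a6KO, with no overlap (log2 fold change 0.31, SE 0.14, limma adjusted p = 0.785). Dgkd, a diacylglycerol kinase, also had no overlap (0.44, SE 0.23), and Rasgrp3, an exchange factor that binds diacylglycerol, had 1.0 (SE 0.49) with overlapping groups. Prkcd and Dgkz had the highest values of the list, and their log2 fold changes were -0.01 (SE 0.14) and -0.29 (SE 0.23).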

How the data were processed

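The deposited table holds 1 signal value per gene model and library: the authors scaled gene counts by DESeq2 size factors, one per library, per the file headers and the submitters' processing notes. The notes name STAR 2.4.0, FastQC, Picard, SAMtools and build mm10 with no role. The read counter and strand setting were not given in the sources used here. Within each library, 100% of values were whole multiples of 1 step (tolerance 0.01 of a read), which gave back the whole reads. These ranged from 9368418 to 21548279 per library, and counting error is the only error this depth describes. In all, 30655 of 56440 gene models carry no symbol.

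Samples were grouped by the genotype label, and replicate numbers only name libraries. Groups were compared with limma 3.58.1 in R 4.3.3 (empirical Bayes trend, log2(value + 1), 2-sided, Benjamini-Hochberg adjustment, threshold 0.05) over 16889 genes with a value of 10 or more in 3 or more libraries. The log scale understates changes of low genes. Alternatives were other pseudocounts, filters and scalings, summed rows, limma settings, library weights, edgeR 4.0.16 and DESeq2 1.42.0 on recovered reads, and leaving out each library. The pipeline was tested on simulated data. Exon lengths are the union of exons of protein-coding genes in GENCODE M21, and promoters are from RefSeq GRCm38.p6.

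The members and lists were chosen with earlier results of these data known. Named genes are the members, the 3 genes of each list with the smallest p and the 2 with the highest mean, and the 3 genes closest to Oxtr with a mean of at least 50 that are no predicted genes. Others are said to be named after their values were seen. No protein sequences were used here.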

Additional observations from a re-analysis of the deposited data

How the results depend on the processing

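Over 20 alternatives, 0 of the 9 members and 0 of 48 other named genes passed the limma, edgeR or DESeq2 test in any. The count of genes called was 0 except with DESeq2 on recovered reads (73, of which 55 higher and 18 lower). The cause was not tested. Of the members, 6 kept their sign in every alternative. Leaving out each library gave log2 fold changes of -1.0 to 0.075 for Gnaq, -0.022 to 0.28 for Itpr1 and -0.37 to 0.38 for Itpr3, and Itpr3 was 0.022 with edgeR and 0.019 with DESeq2. Leaving out each library also turned the sign of F2r (-0.0015 to 0.54), Lnpep (-0.021 to 0.44), Plcd1 (-0.20 to 0.17), Plch2 (-0.063 to 0.11), Prkcd (-0.072 to 0.093), Rgs2 (-0.051 to 0.47) and Rnpep (-0.073 to 0.033). Quantile normalization turned Plcd1 (-0.011) and Plch2 (-0.026), library weights turned Plcd1 (-0.088) and Plch2 (-0.035), and centring on basal markers turned Prkcd (0.022) and Rnpep (0.013). Adra1d could not be fitted in 4 alternatives and Pip4k2b in 1, where they fell under the filter. No paired analysis was possible because the labels give no replicate numbers shared by the groups. Depth limits Gnaq, Itpr2, Itpr3 and Plcb4, which rest on as few as 60, 42, 66 and 44 reads in a library.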

Other observations

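Gna12, which encodes an alpha subunit of another class and was named after its values were seen, had the widest range of the tested alpha subunit genes: 23.1, 76.8, 252 and 217 in Ctrl replicates 1 to 4 and 258, 10.5 and 8.90 in a3a6KO replicates 1 to 3. Like those of Gnaq, its 3 lowest values were in the 3 libraries with the fewest reads and its highest was in a3a6KO replicate 1. Its log2 fold change was -1.70 (SE 1.2, 95% interval -4.42 to 1.01, limma adjusted p = 0.833).

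The second rows of Plcb1 and Plcb4 were not used above. That of Plcb1 (GSMG0021837) held at most 2.0 in any library, and that of Plcb4 (GSMG0043846, chromosome 2, 135659009 to 135742838) held 3.01, 2.42, 4.59 and 8.32 in Ctrl and 6.63, 7.91 and 17.8 in a3a6KO. Chrm1, a muscarinic receptor named after its values were seen, had values of 1000.1, 598, 274 and 285 in Ctrl and of 249, 376 and 149 in a3a6KO, highest in the 2 controls with the highest Oxtr (log2 fold change -0.94, SE 0.48, limma adjusted p = 0.789).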
